A study of Mus musculus with 10 samples.

Results

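The genes described are 10 components of epithelial cell-cell junctions, measured in sorted mouse mammary epithelial cells. They are the classical cadherins Cdh1 and Cdh3, the desmogleins Dsg2 and Dsg3, the desmocollins Dsc2 and Dsc3, and the desmosomal plaque genes Dsp, Pkp1, Pkp3 and Jup. Members were taken by gene symbol, as array probe sets annotated with that symbol alone. Each of the 10 had exactly 1 such probe set, and all 10 passed the filter on dim probe sets, among 15815 genes tested. The lowest-lying member was Dsg3, which still had a mean above the filter level through the basal arrays.

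Total RNA was hybridised to 1 Affymetrix array per sample, in 3 groups that came from 8- to 12-week-old virgin female mice. Pygo2 SSKO basal cells (3 arrays) and control basal cells (4 arrays) were CD29-high, CD24-positive cells, a gate that holds mammary stem cells together with basal cells. Control luminal cells (3 arrays) were CD29-low, CD24-positive and CD61-negative, described as mature luminal. Cells with CD31, CD45 or TER119, which mark endothelial, blood and erythroid cells, were removed in the sort. Mutant and control animals were littermates housed together. The mutant cells are named Pygo2-null in the title of the series, and the labels neither spell out SSKO nor name a Cre driver, a strain or the number of animals per array. The labels speak of biological replicates without giving their animals, so each p-value reflects only how far these arrays spread.

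Cadherins are transmembrane adhesion molecules that bind like molecules on the neighbouring cell through calcium-dependent extracellular repeats. Classical cadherins such as E-cadherin (Cdh1) and P-cadherin (Cdh3) connect through catenins to actin at adherens junctions. Desmogleins and desmocollins connect through plakoglobin (Jup), plakophilins and desmoplakin (Dsp) to keratin filaments at desmosomes. In the mammary gland E-cadherin is carried by luminal and basal cells, and P-cadherin is known as a marker of the basal, myoepithelial layer.

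Values are log2(intensity + 16), as are differences, and the added 16 makes changes of dim genes look smaller than they are. A gene was called when its limma p, after Benjamini-Hochberg adjustment across the 15815 genes, was under 0.05. The targeted gene Pygo2 had log2 values of 6.99, 5.94 and 5.86 in SSKO basal arrays, below the 8.30, 9.09, 8.11 and 8.91 of control basal arrays (difference -2.34, SE 0.32, limma adjusted p = 0.0441). Its difference stayed negative with any 1 array left out, though the call then ended for 7 of the 10 arrays (limma adjusted p up to 0.363 without SSKO array 3). The call also ended with quantile scaling (0.0735), only the 2 groups compared (0.118), robust variance (0.0506), the replicate block (0.177), the endothelial covariate (0.083) and 3 further alternatives, 15 in all. Whether its probe set lies in the deleted part was not determined here. The sorted control populations matched their markers. All 10 basal markers were called lower and all 12 measured luminal markers higher in control luminal than in control basal cells. In SSKO basal arrays the luminal markers summed to an intensity of 32653 to 37410, above the 23841 to 29977 of control basal arrays. For 4 of the 12 these groups did not overlap, all higher in SSKO basal cells, against 4.46% of all genes in either direction. None of the 12 was called, and their part in the values of other genes was not tested.

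Arrays of the same group were not alike, and the differences touch several members. Markers of epidermal differentiation (9 of 10 measured) summed to an intensity of 1946 to 2511 in SSKO basal arrays. They summed to 11843 in control luminal array 3 and to 2490 and 3246 in the other luminal arrays, and to 19938 in control basal array 4 and 1779 to 2340 in the other control basal arrays. Control luminal array 3 also had the highest sum of the 10 basal markers among luminal arrays, at 16657, against 6254 and 5150. Endothelial markers (12 of 12 measured) summed to between 4225 and 23948 in SSKO basal arrays and between 4573 and 12430 in control basal arrays. In these bulk samples fewer cells of a type and less RNA per cell cannot be told apart.

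Between the compartments, 5 of the 10 members differed. In control luminal against control basal cells, Cdh1 and Dsc2 were higher and Cdh3, Pkp1 and Dsp lower, while Dsg2, Dsg3, Dsc3, Pkp3 and Jup did not pass the test. Of all genes tested, 44.3% were called in this comparison, 24.6% higher and 19.7% lower, so a share of 5 in 10 lies near the background. The members' median difference was -0.52, against 0.07 over all genes tested. The groups did not overlap for the same 5 members, where 46.3% of all genes had groups that did not overlap.

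**Figure D1:**
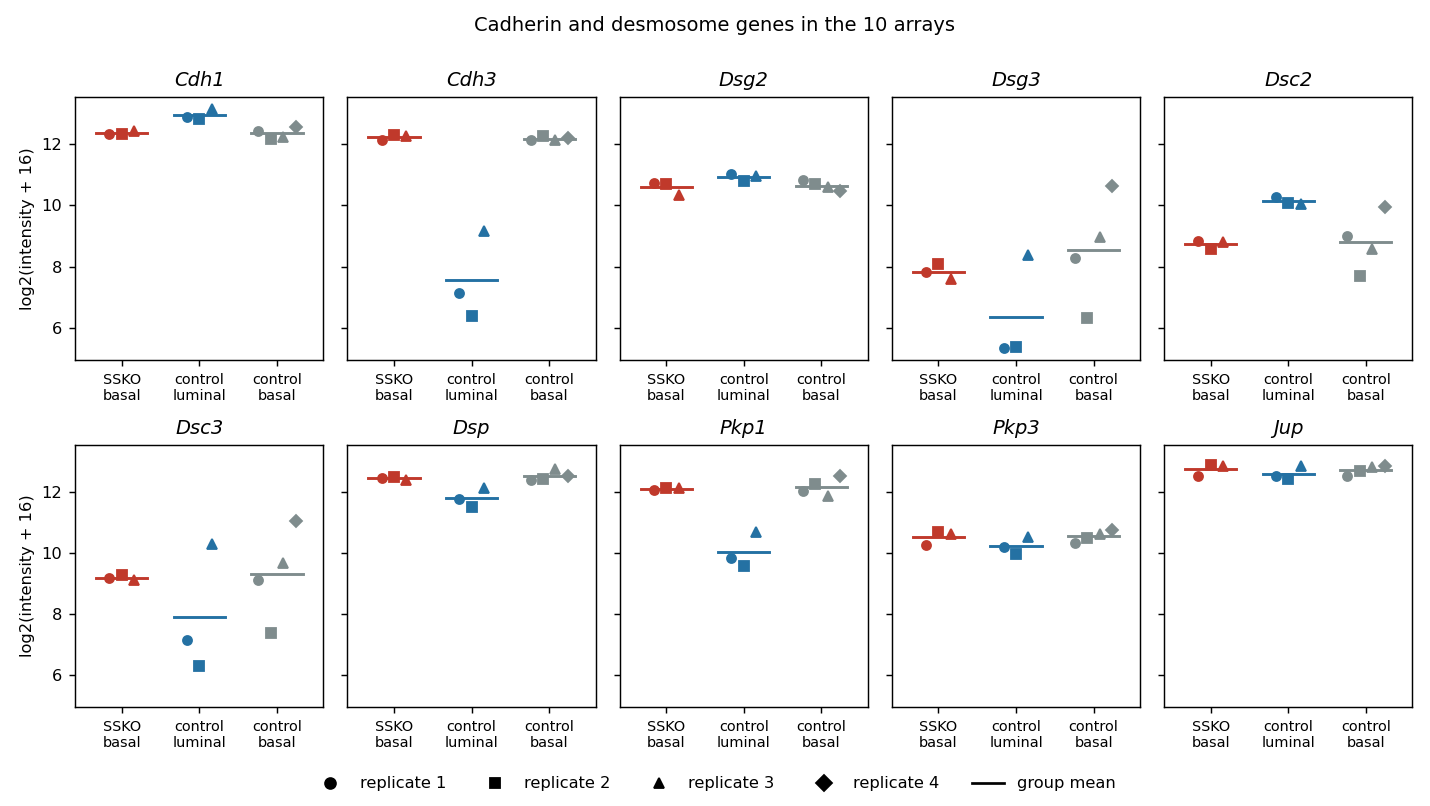
Log2(intensity + 16) of the 10 members in each array, with SSKO basal, control luminal and control basal arrays from left to right in each panel. Symbols mark the replicate number and horizontal bars the group mean. Cdh3 averaged 7.56 in luminal arrays against 12.19 in control basal arrays, and Dsg3 spanned 6.33 to 10.63 among the 4 control basal arrays.

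Of the classical cadherins, P-cadherin was much lower and E-cadherin slightly higher in luminal cells. Cdh3 had log2 values of 7.14, 6.39 and 9.16 in control luminal arrays, against 12.13, 12.26, 12.14 and 12.22 in control basal arrays. As intensities these were 125, 67.9 and 556 in luminal arrays and 4470 to 4880 in control basal arrays. All luminal arrays thus lay far below all basal arrays, and the highest of the luminal values came from array 3, the array with the most basal marker signal. The difference was -4.62 (SE 0.48, limma adjusted p = 1.43e-05), a 24.6-fold lower level, and 0.6% of all genes tested had a larger difference in size. Without control luminal array 3 it was -5.42 (SE 0.19).

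Cdh1, which encodes E-cadherin, went the other way by a small amount. Its log2 values were 12.90, 12.83 and 13.15 in control luminal arrays, against 12.45, 12.17, 12.23 and 12.56 in control basal arrays. Every luminal array lay above every control basal array. The difference was 0.60 (SE 0.13, limma adjusted p = 0.00305), or 1.52-fold, and 35.1% of all genes had a larger difference in size. Cdh1 and Cdh3 are neighbouring coding genes in the RefSeq annotation, with no other coding gene between them, so the pair of neighbours was called in opposite directions.

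The desmosomal cadherins come in forms typical of simple epithelia (Dsg2 and Dsc2) and forms abundant in basal keratinocytes of stratified epithelia (Dsg3 and Dsc3). Dsc2, desmocollin 2, had log2 values of 10.29, 10.09 and 10.04 in control luminal arrays, against 9.01, 7.70, 8.58 and 9.95 in control basal arrays. The luminal arrays lay closely together above a scattered basal group, whose array 4, at 9.95, came nearest to them. The difference was 1.33 (SE 0.39, limma adjusted p = 0.0163), or 2.51-fold. The call ended without control luminal array 1 (1.25, adjusted p = 0.0563).

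Dsg2, desmoglein 2, did not pass. It had log2 values of 11.04, 10.79 and 10.95 in control luminal arrays, against 10.83, 10.70, 10.61 and 10.46 in control basal arrays. The groups overlapped, and the difference was 0.28 with a 95% interval from -0.03 to 0.59 (limma adjusted p = 0.14).

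Dsg3 and Dsc3 had the largest SDs of the 10 members in both control groups. Dsg3, desmoglein 3, had log2 values of 5.34, 5.38 and 8.38 in control luminal arrays, against 8.27, 6.33, 8.97 and 10.63 in control basal arrays. Dsc3, desmocollin 3, had 7.14, 6.31 and 10.30 in control luminal arrays, against 9.11, 7.39, 9.66 and 11.04 in control basal arrays. For both genes luminal array 3 reached into the basal range, and basal array 4 was the highest and basal array 2 the lowest of the basal group.

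Neither gene was called between the compartments. The difference was -2.19 for Dsg3 (95% interval -4.21 to -0.16, limma adjusted p = 0.0771) and -1.38 for Dsc3 (-3.41 to 0.65, limma adjusted p = 0.265). The luminal mean of Dsg3, 6.37, lay under 6.74, the level of the filter on dim probe sets, so the full size of its difference is not known. Without control luminal array 3, Dsg3 differed by -3.19 (adjusted p = 0.0127) and Dsc3 by -2.57 (0.0183), and both were called. Without that array and control basal array 4, an alternative chosen after the data had been seen, they differed by -2.50 (0.00942) and -1.99 (0.0179). With control basal array 2 left out Dsg3 was also called, at -2.93 (adjusted p = 0.0133), while Dsc3 was not (-2.02, 0.0888). Other arrays left out made the differences smaller, to -1.49 for Dsg3 (adjusted p = 0.18) and -0.80 for Dsc3 (0.537) without control basal array 4, and to -0.58 for Dsc3 (0.708) without control luminal array 2.

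Within each control group, the array with the most Dsg3 and Dsc3 signal was also the one with the highest epidermal marker sum. Luminal array 3 had the highest basal marker sum of the luminal arrays as well, 16657 against 6254 and 5150. The part of basal markers in its Dsg3 and Dsc3 values was not tested separately. Krt1, a keratin of differentiating epidermis, had log2 values of 9.52, 9.59 and 12.36 in control luminal arrays, against 8.93, 9.25, 9.25 and 12.78 in control basal arrays. Sprr1b, a cornified envelope precursor, had 9.17, 9.13 and 12.05 in control luminal arrays, against 7.06, 8.55, 8.94 and 12.97 in control basal arrays. Both were high in luminal array 3 and basal array 4 alone. The other epidermal markers tested were not all alike. Krt10 (9.55 and 10.06), Sbsn (8.64 and 8.06) and Calml3 (9.55 and 9.45) were also the highest of their groups in these 2 arrays. Krtdap was likewise highest of its groups in both, at 11.34 in basal array 4. In luminal array 3 it was only 7.10, against 6.19 and 6.44 in the other luminal arrays. Krt77 (8.03 and 7.91) and Lor (6.52 and 6.59) were highest in neither luminal array 3 nor basal array 4. The part of these markers in the Dsg3 and Dsc3 values was not tested separately. Fits without those arrays cannot set it apart, because they also remove the highest Dsg3 and Dsc3 values of each group. A fit with the epidermal marker mean as a covariate was also chosen after the data had been seen. It cannot set that part apart either, because the mean includes Calml3, which is among the genes nearest to Dsg3 in these same arrays. In that fit Dsg3 differed by -2.42 (adjusted p = 0.0037) and Dsc3 by -1.59 (adjusted p = 0.0577), which did not pass.

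Control basal arrays 1 to 3 also differed in these genes. Dsg3 was 8.27, 6.33 and 8.97 there and Dsc3 9.11, 7.39 and 9.66, and array 2 was the low array for both genes and for Dsc2, at 7.70. The epidermal markers summed to 1779, 2067 and 2340 in the same arrays. Single markers differed among themselves, with Krt1 at 8.93, 9.25 and 9.25 and Calml3 at 8.81, 7.21 and 8.50, so that Calml3 was low in array 2 and Krt1 was not. Their part in the spread among arrays 1 to 3 was not tested.

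**Figure D2:**
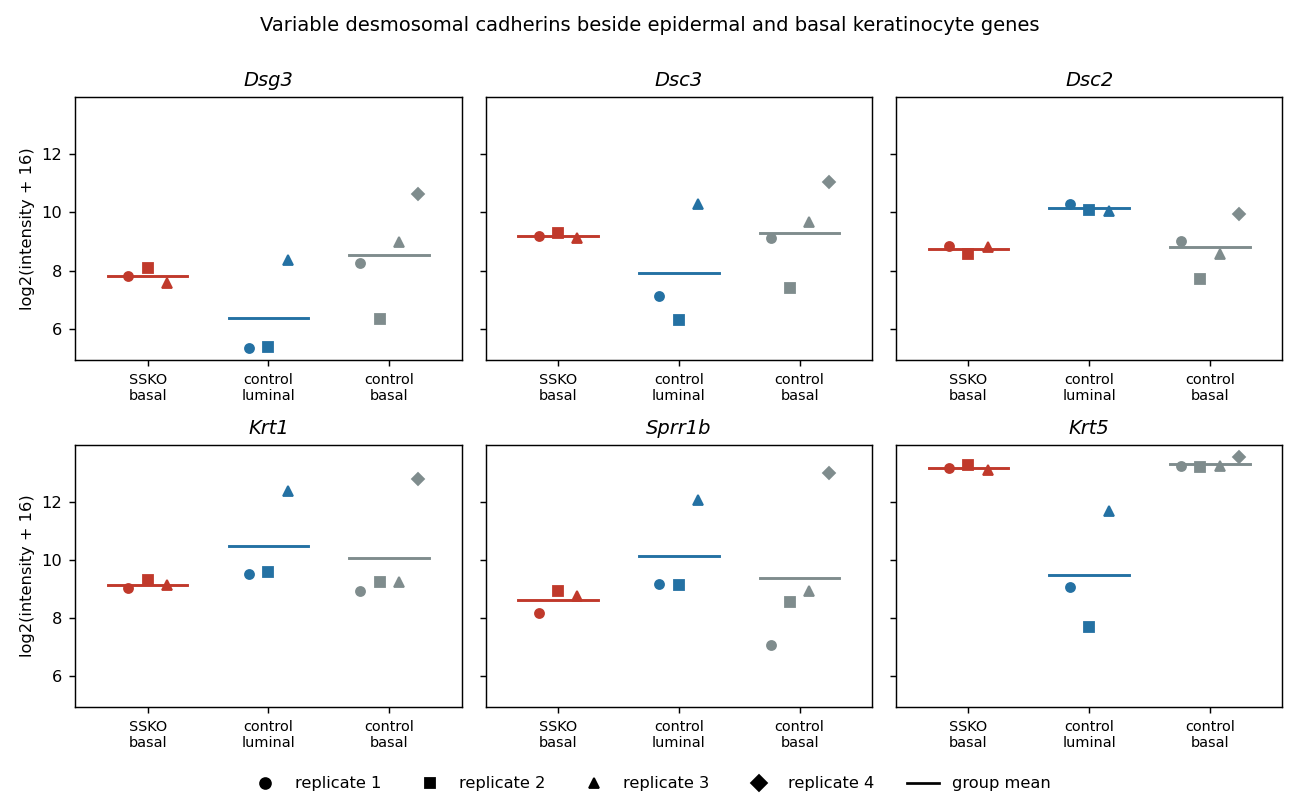
Log2(intensity + 16) of Dsg3, Dsc3 and Dsc2 (top) and of the epidermal genes Krt1 and Sprr1b and the basal keratin Krt5 (bottom), per array, with SSKO basal, control luminal and control basal arrays from left to right. Symbols mark the replicate and bars the group mean. Control luminal array 3 and control basal array 4 are the highest of their groups for Krt1, at 12.36 and 12.78, and also for Dsg3, at 8.38 and 10.63.

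The spread of the 3 variable desmosomal cadherins stood out among genes within the control basal group. The SD over the 4 control basal arrays was 1.78 for Dsg3, 1.51 for Dsc3 and 0.93 for Dsc2, and only 0.1%, 0.2% and 1.1% of all genes had a larger one. The other 7 members had SDs of 0.06 to 0.29, against a median of 0.22 over all genes. Cdh3 was the steadiest, with an SD of 0.06 that 97.5% of genes exceeded. In SSKO basal arrays the same 3 genes lay close together, with SDs of 0.25 for Dsg3, 0.09 for Dsc3 and 0.15 for Dsc2, against a median of 0.16 over all genes. Whether the spread differs between the groups was not tested.

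The genes whose profile over the 10 arrays lay nearest to Dsg3 included Dsc3 itself. By Euclidean distance between mean-centred log2 values, the order was Dsc3 (distance 1.46), Krt16, a keratin of activated epidermis (2.52), and Calml3, an epithelial calmodulin-like protein (2.53). Nearest to Cdh3 were Irx4, a homeobox factor (0.33), Arc (0.65) and Col17a1, the hemidesmosomal collagen (0.74). Their luminal minus basal differences were -4.76, -4.52 and -4.55, each called. They were picked for lying near Cdh3 in these same arrays, so differences like its own follow from the choice. Nearest to Cdh1 were Snap29, Hgs and Wdr24, at 0.20, 0.23 and 0.25, and nearest to Jup were Crtc1, Git1 and Dyrk1a, at 0.20, 0.21 and 0.22. Cdh1 and Jup themselves moved little, so many genes lie at such small distances.

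Of the plaque genes, plakophilin 1 differed most. Pkp1, which strengthens desmosomes in stratified epithelia, had log2 values of 9.85, 9.56 and 10.69 in control luminal arrays, against 12.02, 12.24, 11.85 and 12.53 in control basal arrays. All luminal arrays lay at least 1 log2 unit below all basal arrays, again with luminal array 3 the highest of its group. The difference was -2.13 (SE 0.24, limma adjusted p = 3.15e-05), or 4.37-fold lower, and it was -2.46 without luminal array 3.

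Dsp, desmoplakin, which ties the desmosome to keratin filaments, was also lower. Its log2 values were 11.77, 11.50 and 12.11 in control luminal arrays, against 12.40, 12.41, 12.75 and 12.51 in control basal arrays, so the groups did not overlap. The difference was -0.72 (SE 0.15, limma adjusted p = 0.00248), or 1.65-fold lower.

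Pkp3 and Jup did not pass between the compartments. Pkp3, plakophilin 3, had 10.19, 9.98 and 10.52 in control luminal arrays, against 10.33, 10.50, 10.61 and 10.74 in control basal arrays (difference -0.31, 95% interval -0.68 to 0.05, limma adjusted p = 0.154). It was called at -0.46 without control luminal array 3 (limma adjusted p = 0.0482). Jup, plakoglobin, a plaque protein of both junction types, had 12.50, 12.43 and 12.83 in control luminal arrays, against 12.52, 12.69, 12.80 and 12.84 in control basal arrays. Luminal arrays 1 and 2 lay below every control basal array and luminal array 3 inside their range, with a difference of -0.13 and a 95% interval from -0.45 to 0.19 (limma adjusted p = 0.529).

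RefSeq promoter windows (GRCm38.p6, 250 bases before to 50 bases from the annotated start on) were used for 2 of the 10 members, Dsp and Jup. Any windows on the chromosome of the desmoglein and desmocollin genes were left out beforehand. They are shown because both encode plaque proteins that link cadherins to filaments, and Dsp was called lower in luminal cells while Jup was not called. Capitals mark CAGGTG, the E-box bound by SNAIL and ZEB repressors, and GGGCGG, the GC box, each on either strand (CACCTG and CCGCCC).
Dsp: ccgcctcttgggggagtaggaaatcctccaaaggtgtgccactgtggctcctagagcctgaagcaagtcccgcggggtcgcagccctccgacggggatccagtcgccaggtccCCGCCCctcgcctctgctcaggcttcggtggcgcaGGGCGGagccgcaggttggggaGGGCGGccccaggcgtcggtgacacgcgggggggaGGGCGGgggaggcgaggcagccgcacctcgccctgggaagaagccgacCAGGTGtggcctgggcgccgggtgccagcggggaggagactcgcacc
Jup: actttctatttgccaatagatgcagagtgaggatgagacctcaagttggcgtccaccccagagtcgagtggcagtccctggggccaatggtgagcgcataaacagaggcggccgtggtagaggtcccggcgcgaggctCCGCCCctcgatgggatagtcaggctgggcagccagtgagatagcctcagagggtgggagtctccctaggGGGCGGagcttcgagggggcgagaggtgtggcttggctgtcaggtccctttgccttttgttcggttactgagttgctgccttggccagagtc
The Dsp window (chr13:38151044-38151343, plus strand) holds 1 CAGGTG and 4 GC boxes. The Jup window (chr11:100397741-100398040, minus strand) holds 2 GC boxes and no CAGGTG. Of 32851 promoter windows searched, 20.2% hold CAGGTG and 35.7% hold a GC box, so both motifs are common. No marked motif overlaps another in these windows. A match is a description of the letters and not a site of binding.

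In SSKO basal cells, none of the 10 members was called against control basal cells, and all 10 pairs of groups overlapped. The background was low here too, with 0.0379% of all genes called and 4.46% with groups that did not overlap. No member had an unadjusted limma p under 0.05, where 3.03% of all genes did. The differences lay between -0.73 and 0.05 with a median of -0.06, against 0.01 over all genes, and all adjusted p rounded to 1.

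**Figure D3:**
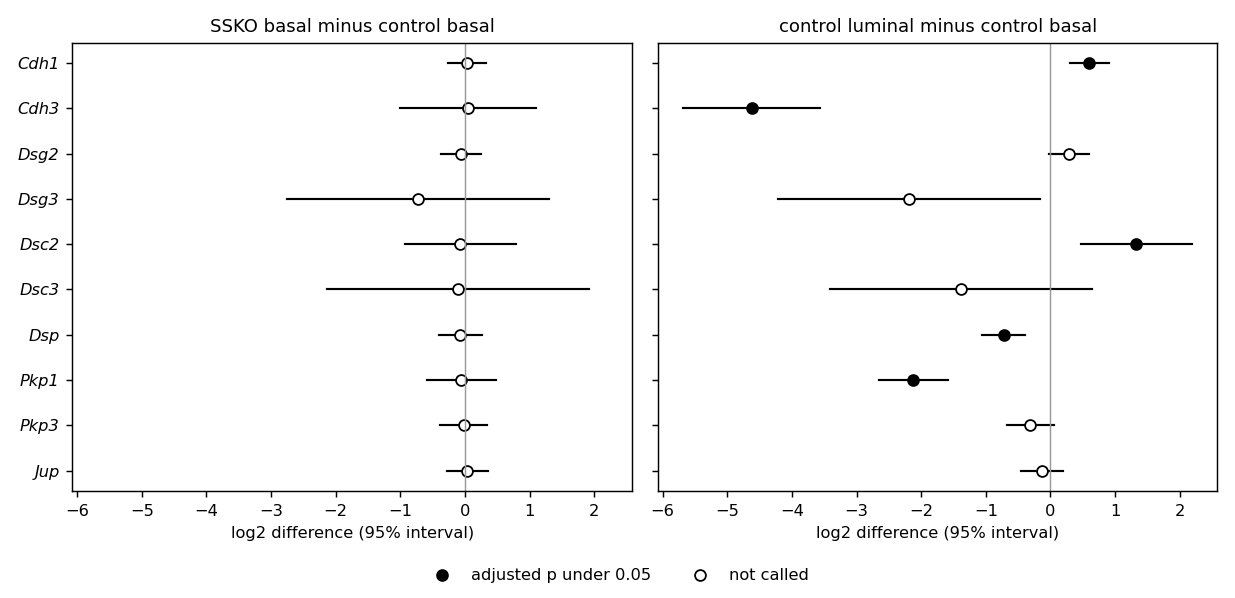
Log2 difference of each member with its 95% interval from the limma fit, for SSKO basal minus control basal cells (left) and control luminal minus control basal cells (right). Filled points have an adjusted p under 0.05. No point is filled on the left, and 5 are filled on the right, with Cdh3 at -4.62 and Dsc2 at 1.33.

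For 5 members the intervals were narrow. Cdh1 had log2 values of 12.35, 12.34 and 12.45 in SSKO basal arrays, within the 12.17 to 12.56 of control basal arrays. The 95% interval of its difference ran from -0.26 to 0.32. The intervals of Dsg2 (-0.37 to 0.25), Dsp (-0.41 to 0.26), Pkp3 (-0.38 to 0.34) and Jup (-0.28 to 0.35) were of like width. A difference as large as that of Cdh1 between the compartments, 0.60, lies outside each of these intervals.

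Cdh3 and Pkp1, the members with the largest called differences between the compartments, had SSKO basal values at or near the control basal range. Cdh3 had 12.14, 12.31 and 12.26 in SSKO basal arrays, against 12.13 to 12.26 in control basal arrays. The difference was 0.05, with an interval from -1.0 to 1.1 from a fit that shares the spread of the luminal arrays. It was 0.05 with an SE of 0.16 without control luminal array 3. Pkp1 had 12.06, 12.13 and 12.11 in SSKO basal arrays, against 11.85 to 12.53 in control basal arrays, and its interval ran from -0.59 to 0.48.

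The desmosomal cadherins with a large spread could not be judged as closely. Dsg3 had 7.81, 8.09 and 7.58 in SSKO basal arrays, inside the 6.33 to 10.63 of control basal arrays. Its difference of -0.73 was the largest in size among the members, with an interval from -2.75 to 1.30, and it became -0.03 without control basal array 4 and -1.47 without control basal array 2. Dsc3 had 9.18, 9.29 and 9.11 in SSKO basal arrays, inside the 7.39 to 11.04 of control basal arrays, with an interval from -2.13 to 1.92. Dsc2 had 8.85, 8.57 and 8.80 in SSKO basal arrays, inside 7.70 to 9.95, with an interval from -0.93 to 0.79. For Dsg3 and Dsc3 these intervals hold the differences between the compartments, -2.19 and -1.38, whereas the Dsc2 difference of 1.33 lies outside its interval.

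Against control luminal cells, SSKO basal cells had 3 members called higher and 2 called lower. This comparison shares the luminal arrays with the one above, so the values are given side by side and are no independent check. Of all genes, 42.3% were called, 19% higher and 23.3% lower. The groups did not overlap for 6 members, where 54.4% of all genes had groups that did not overlap. Cdh3 was higher by 4.67 (SE 0.51), Pkp1 by 2.07 (SE 0.26) and Dsp by 0.65 (SE 0.16) in SSKO basal cells, with limma adjusted p of 2.73e-05, 7.6e-05 and 0.00784. Cdh1 was lower with a difference of -0.58 (SE 0.14, limma adjusted p = 0.00649), and Dsc2 with a difference of -1.40 (SE 0.42, limma adjusted p = 0.0185). Dsg2 lay lower in every SSKO basal array (10.75, 10.69 and 10.34) than in any luminal array, with a limma adjusted p of 0.0988. Without the 3 basal arrays brightest for endothelial markers, which leaves 1 SSKO array that is assumed to vary like the other groups, Cdh1 (-0.62, limma adjusted p = 0.0882), Dsc2 (-1.57, 0.133) and Dsp (0.70, 0.0954) were no longer called. Dsc2 was not called either without SSKO array 2 (0.0569) or luminal array 1 (0.0579), and Dsc3 was called at 2.46 without luminal array 3 (0.0299).

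Other desmosome genes were called in both directions between the compartments. Of 9 further desmosome and cornified-envelope genes 5 were tested, and 2 were called higher and 1 lower in luminal cells. Over all genes tested, 24.6% were called higher and 19.7% lower in this comparison. Pkp2, the plakophilin of simple epithelia and heart, had 10.33, 10.52 and 10.72 in control luminal arrays, against 7.14, 7.11, 6.59 and 7.28 in control basal arrays. It was higher by 3.49 (SE 0.18, limma adjusted p = 6.45e-08), whereas Pkp1 was lower, so these plakophilins were called in opposite directions. Perp, a tetraspan desmosome protein induced by p63, was lower (difference -0.95, limma adjusted p = 0.00311), and Evpl, envoplakin, was higher by 0.41 (0.0405), a call that ended without control basal array 1 or 3, SSKO array 2 or any luminal array (limma adjusted p of 0.0501 to 0.117), with quantile scaling (0.0566) and with the endothelial covariate (0.0886), and under 11 of 25 alternatives in all. In SSKO basal arrays Pkp2 had 7.70, 7.49 and 7.88, all above the control basal arrays (difference 0.66, SE 0.18). Its limma p was 0.00359 before adjustment and rounded to 1 after it. Dsg1b, whose probe set may share sequence with its close paralogs, had the next smallest p of the 5 in SSKO basal cells (difference -0.76, not called), with control basal array 4 at 8.35 against 6.61 to 6.99 in the other control basal arrays.

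Partners of the classical cadherins at adherens junctions were called in both directions. Of 15 genes in this list 14 were tested, 4 were called higher and 7 lower in luminal cells, with a median of -0.16. The shares over all genes tested were 24.6% higher and 19.7% lower. Beta-catenin (Ctnnb1) averaged 12.69 in SSKO basal cells and 12.70 in both control groups (luminal difference 0.00, SE 0.11). Alpha-catenin (Ctnna1, -0.31) and p120-catenin (Ctnnd1, 0.35) were called with small differences (limma adjusted p = 0.0303 and 0.0268). These 3 genes were chosen for naming after their values were seen. Among the adhesion molecules of the nectin family, Nectin4 was higher by 4.06 (SE 0.18) in luminal cells, and Nectin3 and Nectin1 were lower, with differences of -3.66 (SE 0.18) and -1.67 (SE 0.18). The luminal mean of Nectin3, 6.61, lay under 6.74. Ctnnal1, an alpha-catenin-like gene, was lower with a difference of -2.23. In SSKO basal cells none of the 14 was called, and the smallest p belonged to Nectin4 (difference 0.30) and Pkp4 (-0.17).

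Other cadherins called between the compartments were all lower in luminal cells. Of 20 genes in the list 14 were tested, 4 were called lower and 0 higher, with 5 at an unadjusted limma p under 0.05. Over all genes tested 44.3% were called, 19.7% lower and 24.6% higher, and 7930 of 15815 had an unadjusted limma p under 0.05. Cdh11, a mesenchymal cadherin, had 6.03, 6.32 and 6.15 in control luminal arrays, against 10.42, 10.54, 10.60 and 10.08 in control basal arrays (difference -4.24, SE 0.14, limma adjusted p = 6.71e-09). Cdh2, N-cadherin, had 5.07, 5.72 and 5.15 in control luminal arrays, against 9.74, 9.34, 9.65 and 9.23 in control basal arrays (difference -4.18, SE 0.19). Cdh6 and Cdh10 differed by -3.38 and -2.72. All 4 luminal means lay under 6.74, so the sizes are not fully known.

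Fibroblast markers differed between the compartments in the same direction as these cadherins. All 10 were measured and called lower in luminal cells, and they summed to 12369 to 18047 in SSKO basal arrays and 1606 to 6978 in control luminal arrays, against 14736 to 29435 in control basal arrays. Dcn and Col1a2, the brightest of them, differed by -1.87 and -3.64. Their part in the Cdh2, Cdh11, Cdh6 and Cdh10 values was not tested. Within the control basal group, array 3 had the highest fibroblast sum, 29435. In that array Cdh11 was 10.60 (10.08 to 10.54 in the other control basal arrays) and Cdh2 9.65 (9.23 to 9.74). Cdh6 was 8.91 there (8.51 to 9.17 in the others) and Cdh10 7.84 (8.35 to 8.88).

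In SSKO basal cells the smallest p among other cadherins belonged to Cdh10 (difference -0.58) and Cdh4 (0.27), neither of which was called. Cdh10 had 7.76, 7.83 and 7.80 in SSKO basal arrays, all below the 8.44, 8.88, 7.84 and 8.35 of control basal arrays, though array 3 of these lay only just above. Cdh5, VE-cadherin of endothelium, had 11.88, 9.01 and 11.69 in SSKO basal arrays, against 11.03, 8.90, 9.78 and 10.01 in control basal arrays. It is itself 1 of the 12 endothelial markers summed above.

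**Figure D4:**
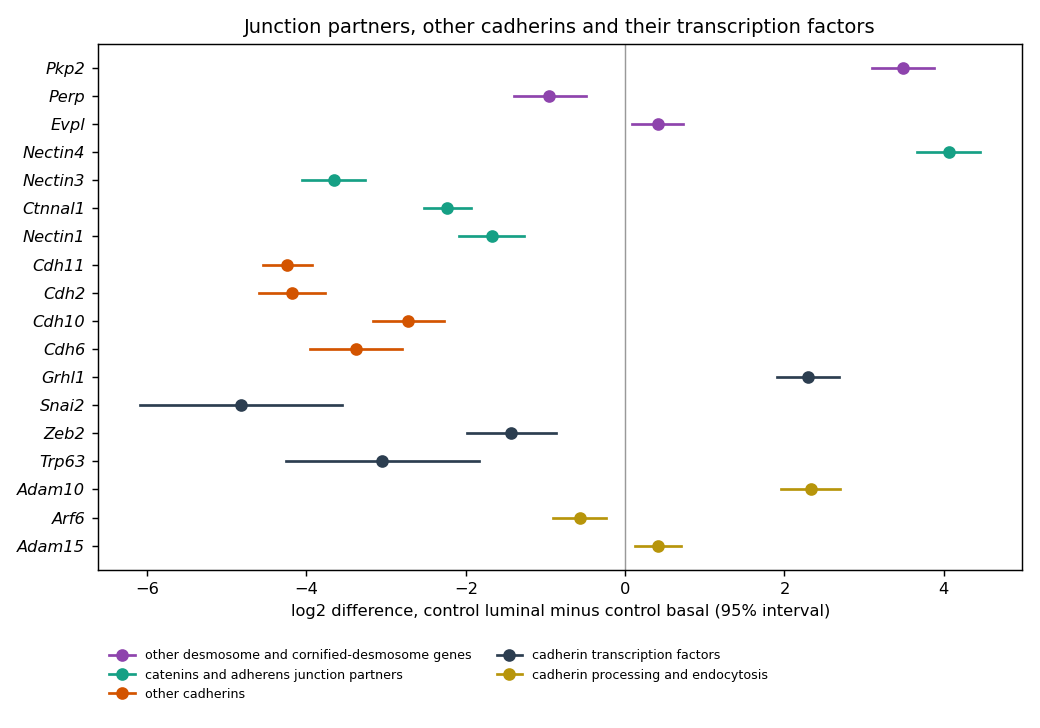
Log2 difference, control luminal minus control basal, with its 95% interval, for up to 4 called genes of smallest p in each of 5 lists of junction partners, other cadherins, transcription factors and processing genes. Nectin4 (4.06), Pkp2 (3.49), Adam10 (2.33) and Grhl1 (2.30) lie to the right of 0, and all 4 other cadherins lie to the left, between -4.24 and -2.72.

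All 16 transcription factors listed for their action on cadherin and desmosome genes were tested, and 7 were called lower and 1 higher in luminal cells. Over all genes tested, 19.7% were called lower and 24.6% higher. Snai2, a SNAIL-family repressor of Cdh1, had 6.51, 6.24 and 9.23 in control luminal arrays, against 12.12, 11.71, 12.21 and 12.56 in control basal arrays (difference -4.82, SE 0.58, limma adjusted p = 4.41e-05). Trp63, p63, a regulator of basal epithelial adhesion genes, had 6.86, 7.60 and 9.98 in control luminal arrays, against 10.98, 10.96, 11.45 and 11.39 in control basal arrays (difference -3.05, SE 0.55). Both were highest among luminal arrays in array 3, as Cdh3 and Pkp1 were. Zeb2, another repressor of Cdh1, differed by -1.43 with a luminal mean of 6.30, under 6.74, and Grhl1, a grainyhead factor known to act on desmosomal cadherin genes, was higher by 2.30. None was called in SSKO basal cells, where Grhl1 (0.22) and Snai3 (0.26) had the smallest p.

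Among genes for cadherin processing and endocytosis, 6 of 7 were tested, with 2 called higher and 1 lower in luminal cells. The shares over all genes tested were 24.6% higher and 19.7% lower. Adam10, a protease that sheds E-cadherin, had 12.36, 12.70 and 12.48 in control luminal arrays, against 10.35, 9.77, 10.31 and 10.31 in control basal arrays (difference 2.33, SE 0.17, limma adjusted p = 8.72e-07). Arf6, a GTPase of E-cadherin endocytosis, was lower with a difference of -0.57, and Adam15 was higher by 0.41. The Adam15 call ended without control basal array 1 or 4 or luminal array 1 (limma adjusted p of 0.0514 to 0.104), with the replicate block (0.0703) and with quantile scaling (0.0535), and under 7 of 25 alternatives in all. None of the 6 was called in SSKO basal cells, where Adam10 (0.20) and Adam15 (0.07) had the smallest p.

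Markers of further cell types were summed in the same way, and their part in the members' values was not tested. Immune markers (9 of 10 measured) summed to 1777 to 3157 in SSKO basal, 1055 to 1355 in control luminal and 1413 to 2651 in control basal arrays. Adipocyte markers (6 of 6) summed to 1374 to 4378, 879 to 1206 and 1313 to 2808 in the same order of groups. Of the Schwann cell markers 4 of 6 were measured, and Pmp22 and Sox10, its brightest, differed by -3.54 and -1.09 between control luminal and control basal cells.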

How the data were processed

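RNA of 10 sorted samples was measured on 1 Affymetrix array each. The deposited table holds linear intensities for 28815 probe sets, made with Affymetrix Expression Console 1.1 and PLIER 2.0 per the submitters' processing notes. No source used here names a between-array normalization, and array medians lay between 205.5 and 228.5. Of the probe sets, 21780 carried 1 gene symbol, 1605 several and 5430 none, and only those with 1 were named.

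From the deposited intensity, log2(intensity + 16) was computed. The dimmest 25% of probe sets by mean were left out (level 6.74), and the brightest probe set stood for a gene, which left 15815 genes. Group means were fitted over all 10 arrays with limma 3.58.1 (lmFit, eBayes) in R 4.3.3, with Benjamini-Hochberg adjustment over all genes and a threshold of 0.05. All adjusted p and intervals come from limma. The number of arrays limits the precision. The fit was tested on simulated data. Nearest profiles are the 3 genes at the smallest Euclidean distance from Cdh1, Cdh3, Dsg3 and Jup. In each list of related genes, those named are up to 4 called between the compartments and the 2 of smallest p in the SSKO comparison, and other genes are said to be outside that rule. The members and lists were chosen with earlier results of these data known. Alternatives were other offsets, filters, scalings, array weights, covariates, a replicate block and leaving out arrays.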

Additional observations from a re-analysis of the deposited data

Results flagged for a closer look

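Among 56 genes examined for a control basal array lying far from the other 3, 4 stood apart. Chance alone flags about 1 in 20 such groups. Krt1 was high in array 4, at 12.78 against 8.93 to 9.25 in the others, with a gap of 0.917 of the group's range. Krt16 was high in the same array, at 11.09 against 8.06 to 8.18 (0.959 of the range). It was examined because its profile lay near that of Dsg3, itself highest in array 4, so the rate of 1 in 20 does not hold for Krt16. Arf6, a GTPase of E-cadherin endocytosis, was also high there, at 12.23 against 11.83 to 11.89 (0.848). Adam10, the E-cadherin protease, was low in array 2, at 9.77 against 10.31 to 10.35 (0.924). Array 4 is the control basal array with the highest Dsg3, Dsc3 and Dsc2 values, and array 2 the one with the lowest.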

How the results depend on the processing

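No member was called between SSKO basal and control basal cells under any of the 25 alternatives. Cdh1, Cdh3, Dsp and Pkp1 were called between luminal and control basal cells under all of them. Array weights raised the called members to 8 in luminal against control basal cells and to 8 in SSKO basal against luminal cells. Leaving out 1 array gave 4 to 8 and 4 to 6 called members in these comparisons, with 8 without control luminal array 3 and 4 without luminal array 1. Leaving out the 3 basal arrays brightest for endothelial markers (control 1, SSKO 1 and SSKO 3) leaves 1 SSKO array, whose spread is borrowed from the remaining groups, so calls lost there rest on fewer samples. In that fit 2 members and 4031 genes were called in SSKO basal against luminal cells. Over all genes, the 6 called in SSKO against control basal cells became 3 under quantile scaling, 3 without control basal array 4 and luminal array 3, and 0 with the single SSKO array left by that fit (214 at an unadjusted limma p under 0.05). Leaving out 1 array gave 1 to 27, with 1 without SSKO array 3, 2 without control basal array 2 and 27 without SSKO array 2.

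Small SSKO minus control basal differences changed sign, none of them called. Under quantile scaling Cdh1 was -0.01 and Jup -0.02, and with centred arrays -0.02 and -0.01. With the replicate block Dsc2 was 0.30, Dsc3 0.47, Pkp1 0.06 and Pkp3 0.05, and the same 4 values came without control basal array 4 and luminal array 3. No array of another group carries replicate number 4, so the block leaves control basal array 4 without weight in this comparison. The match follows from the design and is no separate check. With the epidermal covariate the differences of these 4 genes were 0.13, 0.51, 0.08 and 0.06. Pkp3 was 0.09 with the endothelial covariate. With that single SSKO array Pkp3 was 0.07, Dsg2 0.10 and Adam15 -0.04. Leaving out 1 array gave -0.03 to 0.10 for Cdh1, -0.44 to 0.30 for Dsc2, -0.74 to 0.47 for Dsc3, -0.14 to 0.07 for Dsg2, -0.12 to 0.00 for Dsp, -0.16 to 0.06 for Pkp1, -0.10 to 0.11 for Pkp3, -0.03 to 0.14 for Jup and 0.00 to 0.15 for Adam15. Apart from that match, the cause of these changes was not tested.

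Replicate numbers are shared between groups, but the labels do not tie them to a litter or day. Same-numbered SSKO and control basal arrays had deviations from their group means correlating at 0.635, 0.464 and 0.047. Across all pairs of groups, same-numbered arrays lay between -0.081 and 0.635 and differently numbered ones between -0.437 and 0.427. Whether the numbers mark a pairing is not known. With the replicate block 5 genes were called in SSKO against control basal cells, 6962 in luminal against control basal and 6893 in SSKO basal against luminal cells, with 0, 5 and 5 members among them. Dim luminal values limit the size of the Dsg3, Nectin3, Zeb2, Cdh2, Cdh6, Cdh10 and Cdh11 differences.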
